A study of Mus musculus with 8 samples.

Results

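The unfolded protein response and the chaperone machinery of the endoplasmic reticulum (ER) were examined as 41 named genes out of 55933 in the deposited table. The list was drawn up by name, from the stress sensors and their transcription factors (9 genes), the ER chaperones and co-chaperones (12), the disulphide and prolyl isomerases with the ER oxidases (10) and the genes of ER-associated degradation (10). Of these 41 genes, 40 passed the filter on low values, a mean of at least 0.5 FPKM over all libraries. Ern2, the IRE1 beta paralog best known from gut epithelium, was listed at 0 in all 8 libraries and was not tested.

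RNA-seq was done on mammary epithelium of C57BL/6 mice at pregnancy day 14.5, with 4 control and 4 cKO libraries. The cKO mice are K14-rtTA;teto-Cre;Bmpr1a fl/fl animals that drank doxycycline, so that Cre, the recombinase, is switched on from the K14 promoter and removes floxed Bmpr1a, a receptor for bone morphogenetic proteins, in myoepithelial cells. The controls are littermates, called WT in the labels. Their exact alleles and doxycycline, and the age of the mice used for sequencing, are not given in the sources used here. The model acts on the myoepithelial layer, whereas each library holds RNA of the whole epithelial preparation, in which fewer cells of a type and less RNA per cell cannot be told apart.

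Secretory cells fold their export proteins in the ER. When unfolded proteins build up there, 3 sensors in the ER membrane respond: IRE1 (Ern1) splices Xbp1 mRNA and so yields the active XBP1 factor, PERK (Eif2ak3) phosphorylates a translation factor and so favours ATF4, and ATF6 is cut free as a transcription factor. Their targets are chaperones, disulphide-forming enzymes and the machinery that returns misfolded proteins to the cytosol for degradation. In the mammary gland this apparatus serves the alveolar cells, which make casein and other milk proteins in late pregnancy and lactation. FPKM per gene does not separate spliced from unspliced Xbp1 mRNA and does not report on protein cleavage or phosphorylation, so all values are transcript levels alone. Gene positions are those of the deposited table, in GRCm38.

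Each library had 16123108 to 19896988 reads that fell on genes. Bmpr1a itself was not lower in the libraries labelled cKO. The 4 controls gave 10.6, 11.7, 8.74 and 9.52 FPKM and the 4 cKO libraries, in the same order of replicates 1 to 4 as everywhere here, gave 12.02, 12.03, 10.2 and 10.4 FPKM (exact two-sided permutation test on log2(FPKM + 1), p = 0.257, where the smallest p this design allows is 0.0286). The library labels were therefore not checked by the deleted gene, and every direction below is that of the libraries labelled cKO against those labelled control. Alveolar luminal markers such as caseins and Wap (a whey protein) had the most calls among the cell lists. All 10 had higher means in cKO libraries, beside 7603 of the 15143 genes tested. Of the 10, 4 passed the adjusted test, beside 0.588% of all genes called higher. Their summed FPKM ran from 4191 to 6062 in control and from 9231 to 16362 in cKO libraries.

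Of the 40 ER folding genes tested, 1, Xbp1, was called at an adjusted p under 0.05. The summed FPKM of the 41 lay between 1801 and 1997 in control and between 1861 and 1915 in cKO libraries, so on this scale the cKO range fell inside the control range. As a share of the reads on genes, the 41 took 0.638% to 0.743% in control and 0.616% to 0.684% in cKO libraries, where the ranges overlapped but the cKO range reached lower. Among all 15143 genes tested, 0.588% were called higher and 0.304% lower at that threshold (limma, Benjamini-Hochberg). The direction of those calls turned on the scaling, with 89 higher and 46 lower as deposited, 79 and 80 scaled to TPM and 79 and 92 by library totals. At an unadjusted p under 0.05, 6 members were higher and 1 was lower, beside 8.85% higher and 7.53% lower among all genes tested, and the share of members called in either direction, 17.5%, was near the 16.4% of all genes. All 4 cKO libraries lay above all 4 control libraries for 3 members (Xbp1, Ero1l and Fkbp11) and below them for 0 members, beside 6.1% and 4.6% of all genes. The median difference of the 40 members was 0.01 on the log2(FPKM + 1) scale, on which all differences here are given as cKO minus control, and that of all genes tested was 0.00. For 33 of the 40 members the 95% confidence interval stayed within 0.5 on either side of 0, as it did for 11359 of the 15143 genes tested.

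**Figure D1:**
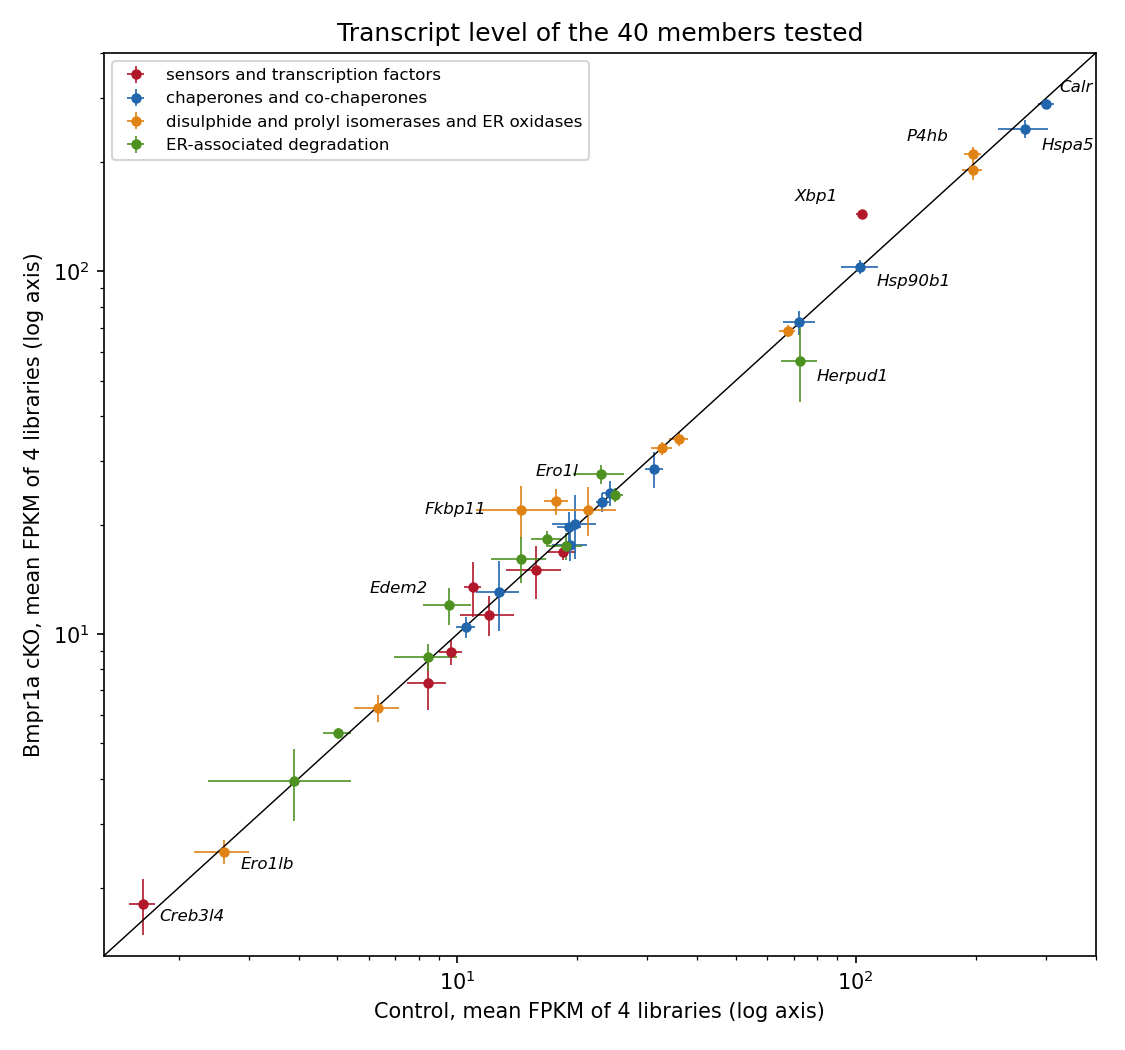
Mean FPKM of the 40 members tested in 4 control libraries (x axis) and 4 cKO libraries (y axis), both axes logarithmic, with bars of 1 SD and the line of equal level. Most members sit on the line over a range from 1.71 FPKM (Creb3l4) to 295 FPKM (Calr), while Xbp1, Fkbp11 and Ero1l lie above it and Herpud1 lies below it.

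The ER folding genes spanned a wide range of levels. The 5 highest, Calr, Hspa5, P4hb, Pdia3 and Xbp1, made up 57% of the members' summed mean FPKM, 9 members had a mean above 50 FPKM and 8 had a mean below 10 FPKM. Spread within a group was small next to that range. The SD was 9.11% of the mean for the median member in control and 8.09% in cKO libraries. Control replicate 1 held the highest control value of 22 of the 40 members, among them Hspa5, Hsp90b1, Calr, Canx and Pdia3.

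Of the 3 sensors, none passed the adjusted test. Ern1 was measured at 13.8, 13.5, 10.2 and 10.6 FPKM in the control and 12.4, 12.6, 9.70 and 10.5 FPKM in the cKO libraries, a difference of -0.08 (95% CI -0.35 to 0.19, adjusted p = 0.787). Replicates 1 and 2 lay above replicates 3 and 4 in both groups, by more than the groups differed. Atf6 was measured at 10.5, 9.57, 9.42 and 9.05 FPKM in control and at 9.78, 9.07, 8.78 and 8.08 FPKM in cKO libraries, a difference of -0.10 (95% CI -0.27 to 0.06, adjusted p = 0.540). The ranges of both genes overlapped between the groups.

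Eif2ak3 (chr6:70844515-70905245, + strand), which encodes PERK, had the higher mean in cKO libraries but not in every one. Its FPKM was 11.3, 10.8, 11.4 and 10.3 in control and 14.9, 12.2, 10.95 and 16.003 in cKO libraries. The controls were close together, whereas cKO replicates 1 and 4 were well above them and cKO replicate 3 lay inside their range. The difference was 0.27 (SE 0.11, 95% CI 0.02 to 0.52, unadjusted p = 0.0387, adjusted p = 0.273). The same pair of cKO libraries was high for Fos and Egr1, immediate early genes that tissue digestion is known to induce. Fos was measured at 120, 61.7, 52.3 and 127 FPKM and Egr1 at 73.0, 34.6, 29.2 and 75.9 FPKM in cKO replicates 1 to 4, against 55.4 to 65.6 and 33.4 to 44.4 FPKM in control libraries. These 2 genes were chosen after their values were seen, and over the whole list of 10 digestion response genes the pair did not stand out alike, since cKO replicate 4 held the highest cKO value of 9 genes and cKO replicate 1 of 1 (Fosb). The list had no gene at an unadjusted p under 0.05, none at 0 in all libraries, and a summed FPKM of 1381 to 1812 in control and 1187 to 1902 in cKO libraries, with cKO replicate 1, at 1598, inside the control range. Its part in the Eif2ak3 values was not tested.

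Xbp1 (chr11:5520659-5525893, + strand) rose in the cKO libraries. It encodes the transcription factor that IRE1 activates and that secretory cells need to build up their ER. Its FPKM was 106, 106, 103 and 99.3 in control and 143, 143, 143 and 149 in cKO libraries. Each cKO library lay above each control library and the libraries of a group lay close together. The means were 103 ± 3.20 FPKM and 144 ± 2.83 FPKM (SD, n = 4 each), a ratio of 1.40. The difference was 0.48 (SE 0.06, 95% CI 0.35 to 0.61), with an adjusted p of 0.0204. Xbp1 also had the smallest relative spread of the 40 members in both groups, 3.09% in control and 1.96% in cKO libraries. Replicates 1 and 2 alone gave a difference of 0.43 and replicates 3 and 4 alone one of 0.52. Leaving out each library in turn gave 0.46 to 0.49, with adjusted p between 0.0369 and 0.0837. The adjusted p exceeded 0.05 without cKO replicate 2 (0.0523) or 4 (0.0602) and without control replicate 1 (0.0642), 2 (0.0786), 3 (0.0583) or 4 (0.0837).

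Markers of 2 cell types that use Xbp1 were read beside it. The alveolar luminal markers moved with it in the groups, as given above, and varied more than Xbp1 within each group. Plasma cells, antibody-secreting cells with a large ER, gave the opposite order. Of 12 plasma cell markers, 10 were tested, all 10 had lower means in cKO libraries, 4 of them at an unadjusted p under 0.05 beside 7.53% of all genes, and their summed FPKM was 151 to 849 in control and 137 to 185 in cKO libraries. The high value belonged to control replicate 3, where Igkc, an immunoglobulin chain, reached 581 FPKM, and Xbp1 was 103 FPKM in that library. No marker of either list was at 0 in all libraries. The part of these cells in the Xbp1 difference was not tested.

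The other 4 factors tested gave intervals that include 0. Atf6b, the ATF6 paralog, was measured at 16.6, 18.0, 19.9 and 19.2 FPKM in control and at 18.2, 16.4, 16.6 and 16.5 FPKM in cKO libraries, a difference of -0.11 (adjusted p = 0.472). Creb3l2, a membrane-bound factor related to ATF6, was measured at 8.87, 9.42, 7.24 and 8.18 FPKM in control and at 8.46, 8.16, 5.91 and 6.87 FPKM in cKO libraries, a difference of -0.18 (adjusted p = 0.487). The groups overlapped for both genes. Its relatives Creb3l1 (15.7 and 15.01 FPKM on average in control and cKO libraries) and Creb3l4 (1.63 and 1.802 FPKM) differed by -0.07 and 0.09.

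**Figure D2:**
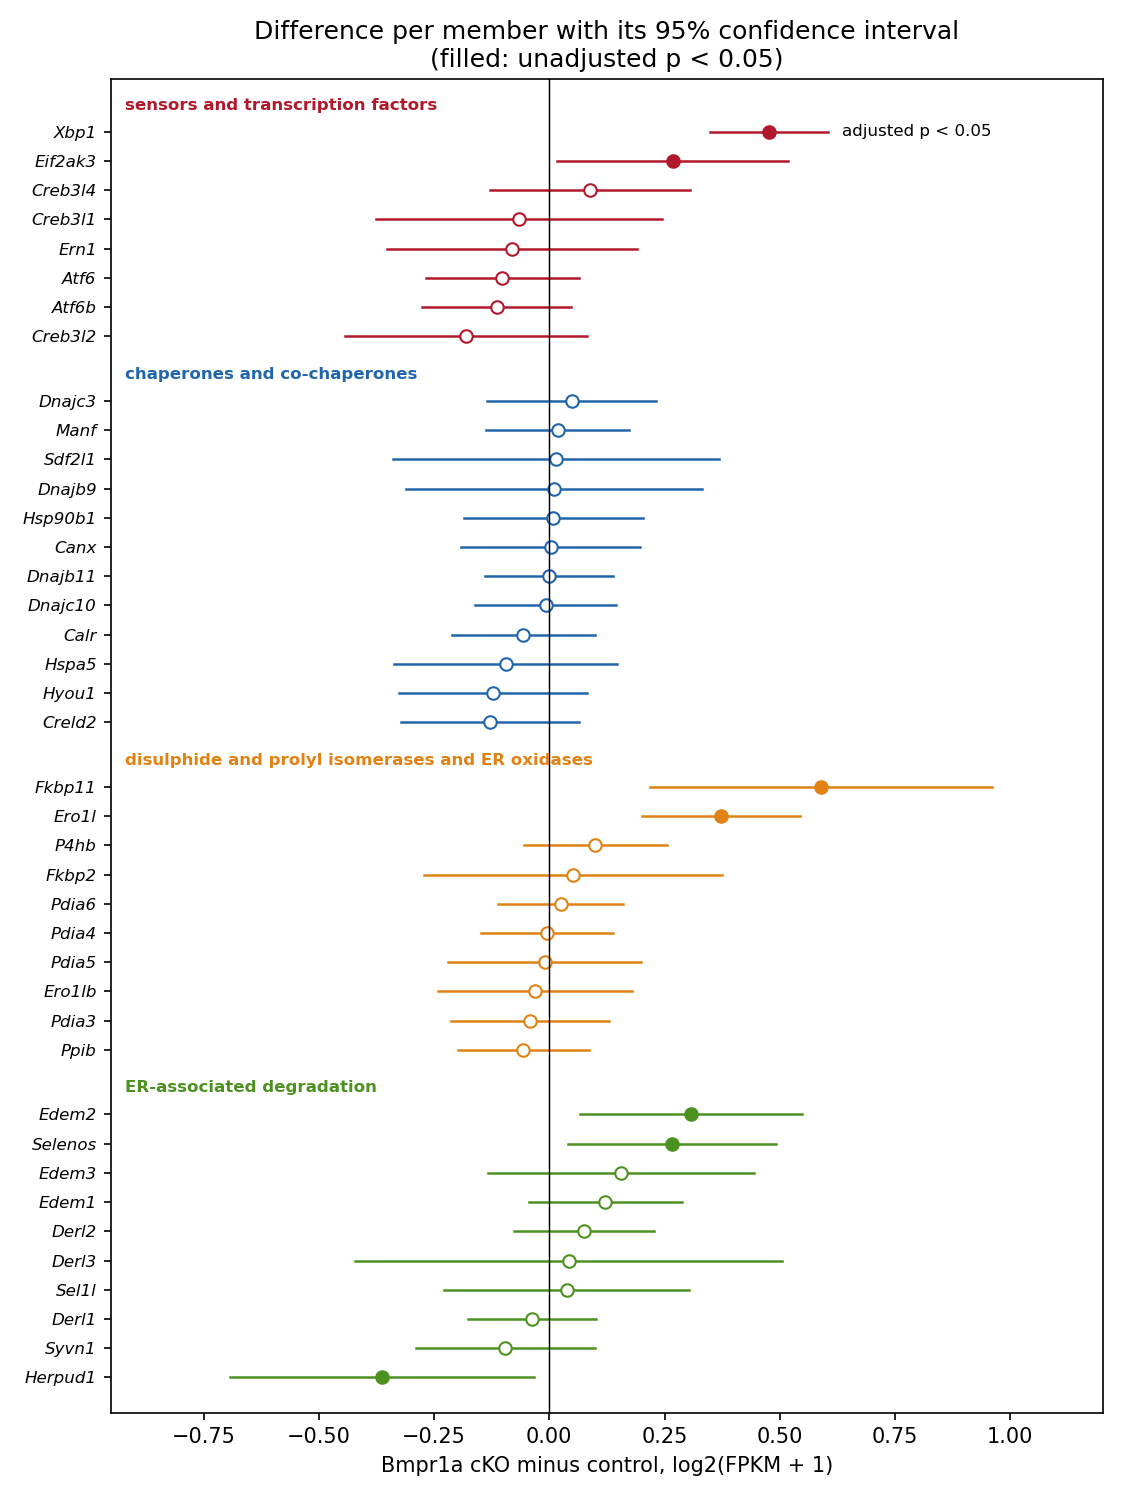
Difference between cKO and control libraries in log2(FPKM + 1) for each of the 40 members tested, with its 95% confidence interval, ordered by size within 4 roles. Filled points have an unadjusted p under 0.05, 6 to the right of 0 and Herpud1 to the left, and all 12 chaperones lie within 0.13 of 0.

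The promoters were searched for the short sequences by which ATF6 and XBP1 are known to act, to see which members carry them. The ER stress response element (ERSE, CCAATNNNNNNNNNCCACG) has a CCAAT box and a CCACG end 9 bases apart, and the second form (ERSE-II, ATTGGNCCACG) has 1 base between its parts. RefSeq promoter windows (build GRCm38.p6, 250 bases before to 50 after the start of transcription, both strands searched) were found for 35 of the 41 members. An ERSE lay in the window of 10 of these members (28.6%), against 37 of the 27025 genes with a window (0.137%). The 11 matches are shown because 6 of the 10 members that hold them are chaperones, whose transcripts did not differ detectably. Each is written in the direction of the motif, with its fixed parts in capitals, and the position given is that of its base farthest upstream along the gene, counted from the RefSeq start as 0.
Hspa5 (chr2:34772025-34772043, + strand, most upstream base at -65): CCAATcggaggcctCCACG
Hsp90b1 (chr10:86705638-86705656, - strand, most upstream base at -212): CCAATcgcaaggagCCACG
Hsp90b1 (chr10:86705533-86705551, + strand, most upstream base at -107): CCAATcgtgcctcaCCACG
Calr (chr8:84847075-84847093, + strand, most upstream base at -162): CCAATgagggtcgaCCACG
Canx (chr11:50325800-50325818, - strand, most upstream base at -145): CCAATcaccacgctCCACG
Dnajc3 (chr14:118937827-118937845, + strand, most upstream base at -105): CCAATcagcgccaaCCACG
Creld2 (chr15:88819520-88819538, - strand, most upstream base at -126): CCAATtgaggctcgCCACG
Pdia6 (chr12:17266491-17266509, + strand, most upstream base at -98): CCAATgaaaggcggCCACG
Ero1lb (chr13:12565682-12565700, - strand, most upstream base at -201): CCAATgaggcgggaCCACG
Syvn1 (chr19:6046532-6046550, + strand, most upstream base at -44): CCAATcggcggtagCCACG
Derl3 (chr10:75893242-75893260, - strand, most upstream base at -156): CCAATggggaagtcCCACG

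The most upstream bases of these 11 matches lay between -212 and -44, 6 of them in the direction of the gene and 5 in the other, and Hsp90b1 held 2. ERSE-II lay in 2 members, against 12 of all genes with a window (0.0444%).
Dnajb11 (chr16:22857852-22857862, + strand, most upstream base at 7): ATTGGcCCACG
Herpud1 (chr8:94386377-94386387, + strand, most upstream base at -52): ATTGGgCCACG

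The UPRE core TGACGTGG, a site preferred by XBP1, was in 0 of the 35 members and in 0.714% of all genes with a window. The shorter ACGTG, which is part of TGACGTGG and of some longer sites, was in 16 members (45.7%) and in 21.8% of those genes. Xbp1, Ero1l, Fkbp11, Edem2, Selenos and Eif2ak3, the 6 members higher at an unadjusted p under 0.05, had windows with no exact match to ERSE or ERSE-II. Near matches were not searched for, so a window without a match may still hold such a site.

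Whole windows are given for 3 members, Hspa5 as the best known target, Herpud1 as the member with the lowest difference and Xbp1 as the member that was called, written 5′ to 3′ on the strand of the gene. Capitals mark the fixed letters of ERSE, ERSE-II and TGATGNAA, a core of the sites that ATF4 binds with C/EBP partners, which 1 of the 35 members (Herpud1) and 4.51% of all genes with a window held.
Hspa5 (chr2:34771840-34772139, + strand): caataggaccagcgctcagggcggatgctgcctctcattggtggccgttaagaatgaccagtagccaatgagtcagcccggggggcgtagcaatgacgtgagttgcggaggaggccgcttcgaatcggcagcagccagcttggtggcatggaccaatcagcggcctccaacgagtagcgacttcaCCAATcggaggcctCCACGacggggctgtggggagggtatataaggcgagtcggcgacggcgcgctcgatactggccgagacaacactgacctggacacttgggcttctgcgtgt
Herpud1 (chr8:94386179-94386478, + strand): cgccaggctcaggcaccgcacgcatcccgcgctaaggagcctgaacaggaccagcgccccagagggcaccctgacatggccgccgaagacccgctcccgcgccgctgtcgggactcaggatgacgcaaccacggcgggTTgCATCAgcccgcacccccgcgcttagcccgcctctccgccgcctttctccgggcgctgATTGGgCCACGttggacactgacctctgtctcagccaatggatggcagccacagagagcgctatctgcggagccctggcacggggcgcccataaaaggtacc
Xbp1 (chr11:5520391-5520690, + strand): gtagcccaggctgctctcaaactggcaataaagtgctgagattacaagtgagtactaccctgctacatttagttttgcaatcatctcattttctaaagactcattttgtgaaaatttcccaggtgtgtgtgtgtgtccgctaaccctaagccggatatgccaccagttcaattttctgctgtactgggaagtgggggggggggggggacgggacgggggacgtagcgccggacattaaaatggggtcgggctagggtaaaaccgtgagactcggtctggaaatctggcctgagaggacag

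Grouped by these matches, the 12 members with an ERSE or ERSE-II had a median difference of -0.02, with 0 higher and 1 lower (Herpud1) at an unadjusted p under 0.05. The 23 members with a window and neither match had a median of 0.05, with 6 higher and 0 lower. Among all genes, 8.85% were higher and 7.53% lower at this p. This grouping was made after the values were seen and was not tested.

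The chaperones proper did not differ detectably. None of the 12 passed the adjusted test, and 0 had an unadjusted p under 0.05, beside 16.4% of all genes. Their differences ran from -0.13 to 0.05. All 12 confidence intervals lay within 0.5 of 0, as did those of 11359 of the 15143 genes tested. Hspa5 (chr2:34771970-34777547, + strand), the HSP70 of the ER known as BiP that also restrains the 3 sensors, was measured at 318, 267, 230 and 247 FPKM in control and at 244, 262, 229 and 253 FPKM in cKO libraries. The cKO range lay almost wholly inside the control range, whose top was control replicate 1. The difference was -0.09 (95% CI -0.34 to 0.15, adjusted p = 0.710), and without control replicate 1 it was -0.00471. Xbp1 therefore stood higher relative to Hspa5 in cKO libraries, with a ratio of their FPKM of 0.548 to 0.622 against 0.333 to 0.447 in control libraries, a pair chosen after the values were seen.

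Hsp90b1, the HSP90 of the ER (GRP94), was measured at 114, 109, 90.1 and 97.1 FPKM in control and at 103, 106, 106 and 96.8 FPKM in cKO libraries, a difference of 0.01 (95% CI -0.19 to 0.20, adjusted p = 0.972) whose sign turned under several other scalings and leave-outs. Calr, the lectin chaperone calreticulin and the member with the highest mean level, was measured at 317, 283, 300.02 and 304 FPKM in control and at 290.17, 276, 299 and 292 FPKM in cKO libraries, a difference of -0.06 (95% CI -0.21 to 0.10, adjusted p = 0.734). Its membrane-bound counterpart Canx averaged 72.2 FPKM in control and 72.3 FPKM in cKO libraries. The interval of Canx ran from -0.19 to 0.20, about as wide as that of Hsp90b1.

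Creld2, a secreted ER stress protein, had the lowest difference of the chaperones. It was measured at 33.4, 29.5, 30.8 and 31.0 FPKM in control and at 28.4, 24.5, 32.3 and 28.9 FPKM in cKO libraries, a difference of -0.13 (95% CI -0.32 to 0.06, adjusted p = 0.499). Hyou1, which recharges BiP with nucleotide, averaged 19.2 and 17.6 FPKM in control and cKO libraries (-0.12). The J-domain co-chaperones that work with BiP were flat, from -0.01 for Dnajc10 (10.5 and 10.5 FPKM) to 0.05 for Dnajc3 (19.1 and 19.8 FPKM), with Dnajb9 (19.8 and 20.1 FPKM) and Dnajb11 (23.2 and 23.2 FPKM) between them. Sdf2l1, a further BiP partner, averaged 12.7 and 13.1 FPKM and Manf, a secreted BiP cofactor, 24.2 and 24.5 FPKM. Of the chaperones, Sdf2l1 had the widest interval (-0.34 to 0.37).

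Among the enzymes that form and rearrange disulphide bonds or turn proline bonds, 2 of 10 were higher at an unadjusted p under 0.05 beside the 8.85% of all genes, and neither passed the adjusted test. Ero1l (chr14:45283087-45318771, - strand), the oxidase that recharges protein disulphide isomerase, was measured at 19.1, 17.4, 16.3 and 18.2 FPKM in control and at 26.2, 22.3, 22.1 and 22.5 FPKM in cKO libraries. The groups did not overlap, and cKO replicate 1 stood above the other cKO libraries. The means were 17.7 ± 1.196 and 23.3 ± 1.93 FPKM (SD, n = 4 each), and the difference was 0.37 (SE 0.08, 95% CI 0.20 to 0.54, unadjusted p = 0.000849, adjusted p = 0.0624). Replicates 1 and 2 alone gave 0.39 and replicates 3 and 4 alone gave 0.35. These sets of replicates are in no label and were taken from earlier work on the same data. With a block for them the adjusted p was 0.0351, past the threshold. Scaled to TPM it was 0.184, and with a library left out it was 0.0802 to 0.145, short of the threshold. The paralog Ero1lb, at 2.60 and 2.51 FPKM, differed by -0.03.

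Fkbp11 (chr15:98724366-98728198, - strand), a prolyl isomerase of secretory cells, had the largest difference of the 40 members. It was measured at 11.2, 12.1, 18.2 and 16.2 FPKM in control and at 19.3, 18.6, 24.5 and 25.8 FPKM in cKO libraries. The groups did not overlap, but replicates 3 and 4 lay above replicates 1 and 2 in both, by 0.52 on the log2 scale in control libraries. The difference was 0.59 (SE 0.16, 95% CI 0.22 to 0.96, unadjusted p = 0.00588, adjusted p = 0.132). Replicates 1 and 2 alone gave 0.66 and replicates 3 and 4 alone gave 0.52, and with the block for these sets Fkbp11 passed at an adjusted p of 0.00915. Fkbp11 did not pass scaled to TPM (0.0908) or with any library left out (0.127 to 0.267). Fkbp2, an isomerase of the same family, averaged 21.3 and 22.04 FPKM and differed by 0.05. The ratio of Fkbp11 to Fkbp2, also chosen after the values were seen, was 0.597 to 0.713 in control and 0.912 to 1.07 in cKO libraries.

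The disulphide isomerases themselves gave differences close to 0. P4hb, the main disulphide isomerase, was measured at 193, 185, 206 and 203 FPKM in control and at 219, 198, 209.89 and 217 FPKM in cKO libraries, a difference of 0.10 (95% CI -0.05 to 0.25, adjusted p = 0.517). The groups overlapped, with cKO replicate 2 below the highest controls. Pdia3 (197 and 191 FPKM, which works with the lectin chaperones), Pdia4 (32.6 and 32.5 FPKM), Pdia5 (6.32 and 6.25 FPKM) and Pdia6 (67.5 and 68.6 FPKM) differed by -0.04, -0.00, -0.01 and 0.02. Ppib, the ER cyclophilin, averaged 36.0 and 34.6 FPKM and differed by -0.06.

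**Figure D3:**
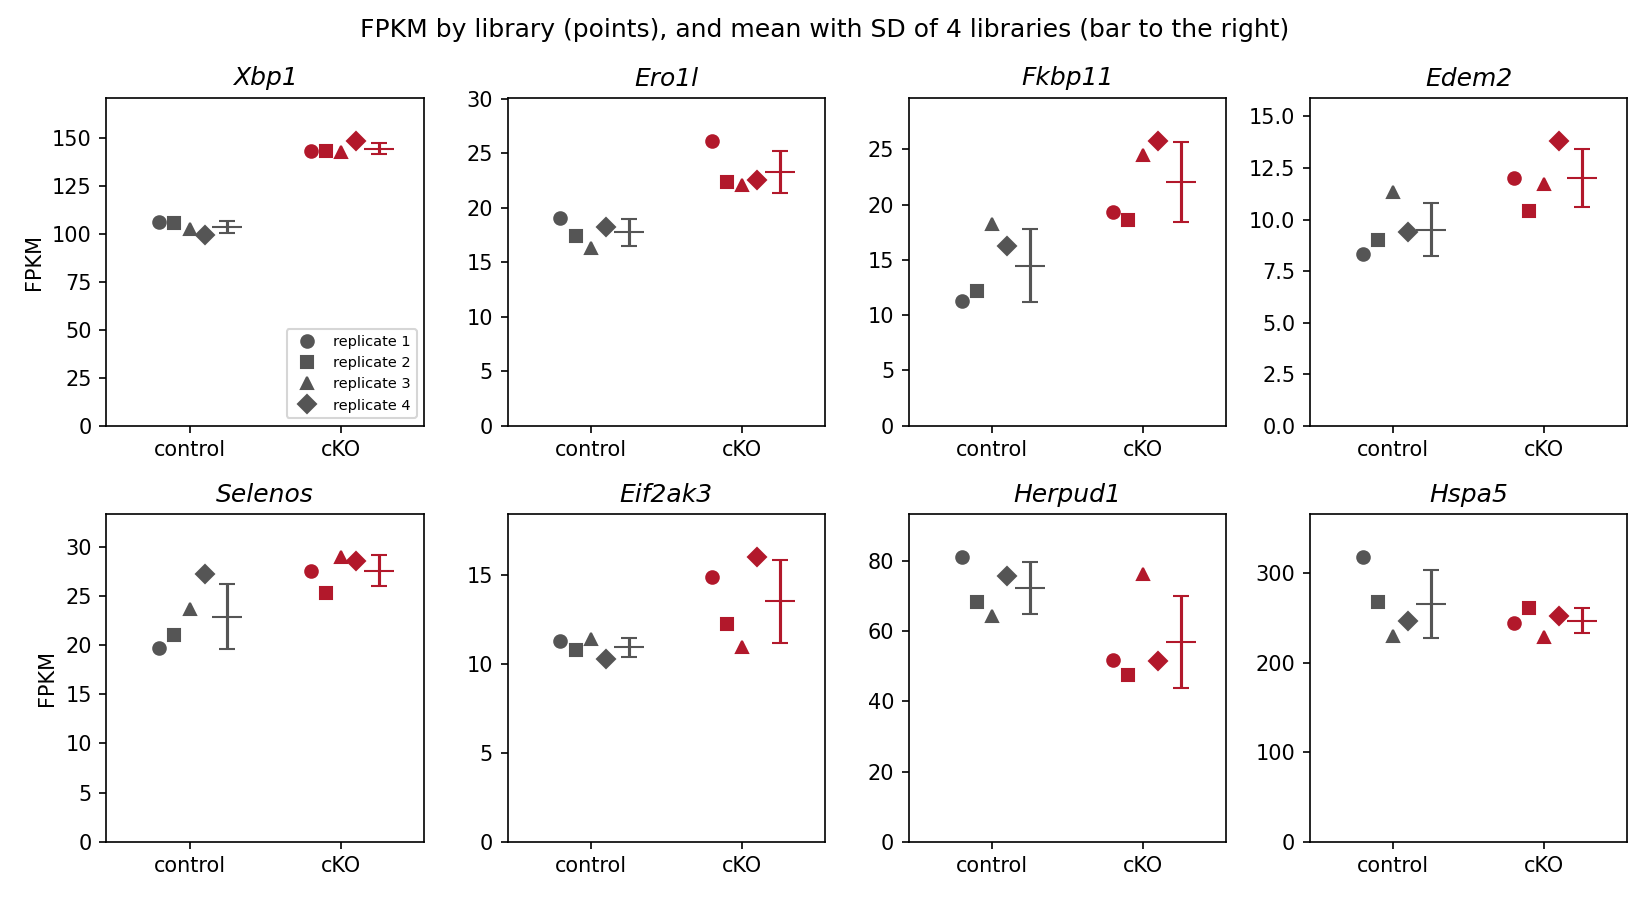
FPKM of the 7 members with an unadjusted p under 0.05 and of Hspa5 in each library, on axes that start at 0, with the marker shape giving the replicate number and the bar the mean and SD of 4 libraries. Xbp1, Ero1l and Fkbp11 do not overlap between control and cKO libraries, cKO replicate 3 sets Herpud1 apart from the other cKO libraries, and Hspa5 overlaps fully.

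In ER-associated degradation, 2 of 10 genes were higher and 1 was lower at an unadjusted p under 0.05, beside 8.85% and 7.53% of all genes, and 0 passed the adjusted test. Edem2 (chr2:155701677-155729475, - strand), which trims mannose from misfolded glycoproteins to mark them for disposal, was measured at 8.31, 9.002, 11.3 and 9.42 FPKM in control and at 12.03, 10.4, 11.7 and 13.8 FPKM in cKO libraries. Control replicate 3 reached into the cKO range. The difference was 0.31 (SE 0.11, 95% CI 0.07 to 0.55, unadjusted p = 0.0177, adjusted p = 0.199). Edem1 was measured at 19.0, 16.2, 15.8 and 16.1 FPKM in control and at 19.7, 17.7, 17.8 and 17.9 FPKM in cKO libraries, a difference of 0.12 (adjusted p = 0.457), with replicate 1 the highest library of both groups. Edem3 averaged 14.4 and 16.2 FPKM (0.16), so the 3 mannosidase-like genes all had higher means in cKO libraries.

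Selenos (chr7:66079649-66089405, + strand), a selenoprotein that anchors the cytosolic ATPase at the channel for retrotranslocation, was measured at 19.7, 21.0, 23.7 and 27.2 FPKM in control and at 27.5, 25.3, 28.9 and 28.5 FPKM in cKO libraries. Its difference was 0.27 (SE 0.10, 95% CI 0.04 to 0.49, unadjusted p = 0.0261, adjusted p = 0.233). Replicates 1 and 2 alone gave 0.36 and replicates 3 and 4 alone gave 0.17, and control replicate 4 lay inside the cKO range. The ubiquitin ligase Syvn1 (18.8 and 17.5 FPKM) and its adaptor Sel1l (8.47 and 8.64 FPKM) differed by -0.10 and 0.04. The channel proteins Derl1 (24.9 and 24.2 FPKM), Derl2 (5.02 and 5.33 FPKM) and Derl3 (3.89 and 3.93 FPKM) differed by -0.04, 0.08 and 0.04. Derl3 had the largest relative spread in control libraries, 39.2%, with 6.08 FPKM in control replicate 1 and 2.73 to 3.77 FPKM in the other controls.

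Herpud1 (chr8:94386438-94395377, + strand) was the member with the lowest difference. It encodes a membrane protein that gathers the degradation complex and is a classical target of both the ATF6 and the ATF4 arms. Its FPKM was 81.1, 68.1, 64.4 and 75.5 in control and 51.8, 47.5, 76.2 and 51.6 in cKO libraries. Of the cKO libraries, 3 lay below every control and cKO replicate 3 lay above all but 1 of them. The difference was -0.36 (SE 0.15, 95% CI -0.69 to -0.03, unadjusted p = 0.0348, adjusted p = 0.260). With a library left out it ran from -0.51 (without cKO replicate 3, adjusted p = 0.0573) to -0.29 (without cKO replicate 2, adjusted p = 0.452), and the unadjusted p stayed under 0.05 in 3 of the 8 such fits. From replicates 1 and 2 alone the difference was -0.57, and from replicates 3 and 4 alone it was -0.15.

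The targets of PERK and ATF4 were read beside Herpud1. Of 14 such genes, 13 had lower means in cKO libraries and the median difference was -0.25, with 2 lower and 0 higher at an unadjusted p under 0.05, beside 7.53% and 8.85% of all genes, and none past the adjusted test. Ddit3, which encodes the factor CHOP, was measured at 13.4, 11.2, 13.9 and 13.7 FPKM in control and at 9.31, 9.77, 11.2 and 11.2 FPKM in cKO libraries, a difference of -0.31 (unadjusted p = 0.00802, adjusted p = 0.147). With the block for sets of replicates its adjusted p was 0.0475, past the threshold, and it did not pass in any of the 8 fits with a library left out (0.122 to 0.286). Sesn2, a stress-induced inhibitor of mTORC1 signalling, was measured at 32.2, 32.8, 41.6 and 38.5 FPKM in control and at 22.5, 16.9, 37.3 and 17.9 FPKM in cKO libraries, a difference of -0.66 (unadjusted p = 0.0161, adjusted p = 0.192). Chac1, a glutathione-degrading enzyme, was measured at 45.3, 43.0, 62.9 and 55.0 FPKM in control and at 34.7, 29.8, 71.5 and 27.9 FPKM in cKO libraries, a difference of -0.41 (adjusted p = 0.501). As for Herpud1, cKO replicate 3 was far above the other cKO libraries for Sesn2 and Chac1, and it held the highest cKO value of 9 of the 14 genes. The sum over the 14 genes was 983 to 1324 FPKM in control and 823 to 1236 FPKM in cKO libraries, and cKO replicate 3 was the highest cKO library. Without it, 6 of the 14 were lower at an unadjusted p under 0.05, beside 7.88% of all genes in that fit, and the median was -0.31. With any of the other 7 libraries left out, 2 of the 14 were lower at an unadjusted p under 0.05, beside 6.06% to 7.79% of all genes. The median was then -0.28 to -0.14. Sesn2 passed the adjusted test in 1 of the 8 fits, that without cKO replicate 3 (-0.89, adjusted p = 0.0471, and up to 0.361 over the 8). Chac1 passed in 0 of the 8 and ran from -0.71 (adjusted p = 0.0708) to -0.27 (adjusted p = 0.725). Why this library differs was not tested.

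**Figure D4:**
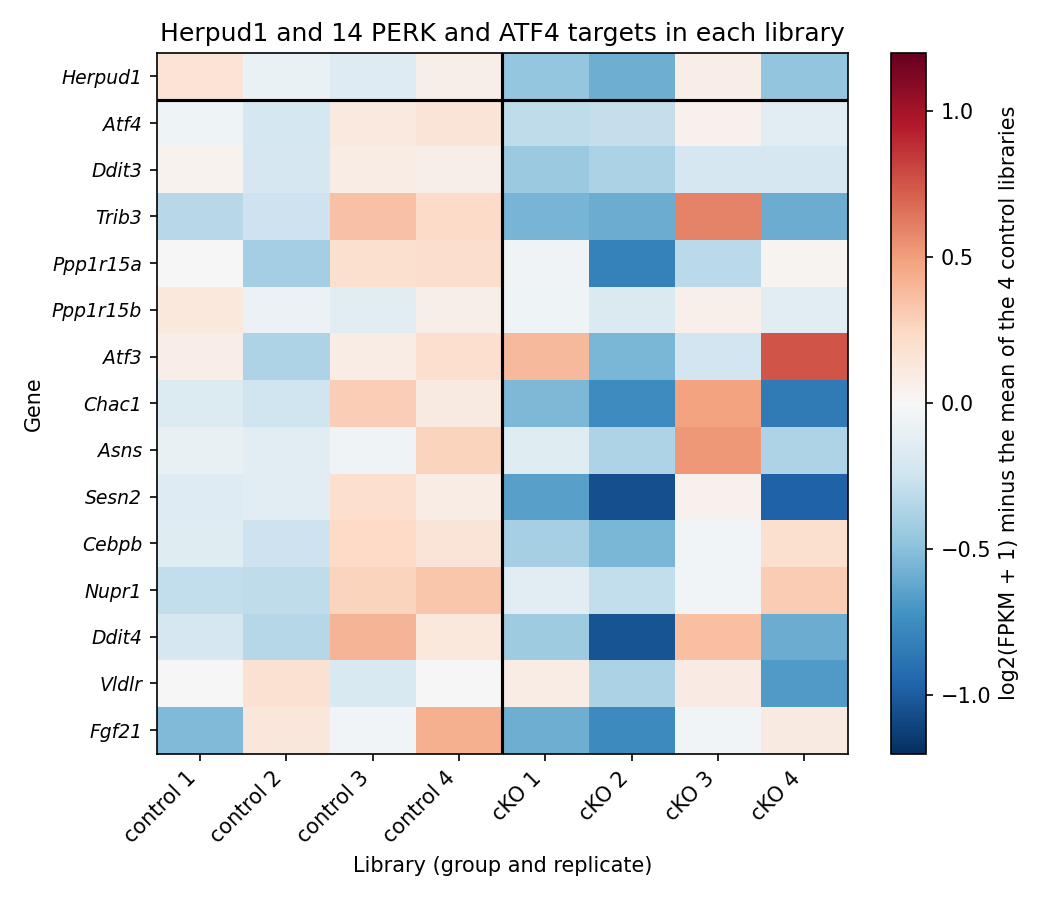
Herpud1 (top row) and 14 PERK and ATF4 targets in each library, as log2(FPKM + 1) minus the mean of the 4 control libraries, red above and blue below it. cKO replicates 1, 2 and 4 are blue for Herpud1, Trib3, Chac1, Asns, Sesn2 and Ddit4, whereas cKO replicate 3 is red or close to white for these genes.

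Lists of further stress and folding genes, drawn up by function, were read on the same fit. Of 122 genes tested in 6 such lists, 2 passed the adjusted test, both higher in cKO libraries, and 23 were higher and 5 lower at an unadjusted p under 0.05. The adjusted calls make up 1.64% of these genes, against 0.892% of all genes tested, and those higher at an unadjusted p 18.9%, against 8.85%. The 5 of 122 that were lower stand beside 7.53% of all genes. Serp1, which stabilises membrane proteins at the translocon under stress, was measured at 55.4, 53.0, 54.3 and 54.4 FPKM in control and at 79.5, 69.3, 73.5 and 71.8 FPKM in cKO libraries, a difference of 0.43 (adjusted p = 0.0267). Bhlha15, the secretory cell factor MIST1, was measured at 1.22, 0.942, 1.18 and 0.869 FPKM in control and at 2.995, 2.08, 2.09 and 2.94 FPKM in cKO libraries, a difference of 0.77 (adjusted p = 0.0313). Like Xbp1, both separated the groups fully. Their calls were not stable, as Serp1 passed in 2 of the 8 fits with a library left out (without cKO replicates 1 or 3, adjusted p 0.0434 to 0.0877 over the 8) and Bhlha15 in 1 (without cKO replicate 3, 0.0471 to 0.0938), and neither passed without the filter on low values (0.0507 and 0.0885). Scaled to TPM, Serp1 did not pass (0.0741).

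Serp1 was the only gene of the 31 tested in the list of other ER folding and glycan quality control genes to pass, with 3 higher (9.68%) at an unadjusted p under 0.05, near the 8.85% of all genes, and a list median of 0.02. Its next genes by p were Erp44, a thiol retention protein (0.23, adjusted p = 0.124), and Sec63, a translocon co-chaperone (0.17, adjusted p = 0.173). Among 30 other ER-associated degradation genes, 5 were higher and 2 lower at an unadjusted p under 0.05, beside 8.85% and 7.53% of all genes, with 0 past the adjusted test and a median of 0.07. Man1a, a mannosidase, differed by -0.34 (adjusted p = 0.105), Erlin2 by 0.16 (adjusted p = 0.177) and Svip, an inhibitor of this pathway, by 0.29 (adjusted p = 0.181). With the block for sets of replicates, Man1a passed the adjusted test. In the list of sensor processing and other ER stress regulators, with 14 genes tested, Bhlha15 passed, 5 (35.7%) were higher at an unadjusted p under 0.05, beside the same 8.85%, and the median was 0.07. Next by p were Tram1, a translocon protein (0.38, adjusted p = 0.0897), and Mbtps2, the protease that makes the last cut in ATF6 (0.20, adjusted p = 0.243).

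Chaperones of other compartments were compared next, and none passed the adjusted test in the fit used for all lists, without a block and on the deposited scale. Of 20 cytosolic heat shock genes, 6 were higher and 1 lower at an unadjusted p under 0.05, with a median of 0.10, beside 8.85% higher and 7.53% lower among all genes. Hsp90aa1, the inducible cytosolic HSP90, was measured at 277, 292, 211 and 246 FPKM in control and at 306, 388, 320.28 and 466 FPKM in cKO libraries (0.52, adjusted p = 0.149). Hspb8, a small heat shock protein, differed by 0.41 (adjusted p = 0.0952) and Hspa2, an HSP70 best known from the testis, by -0.48 (adjusted p = 0.0624). Hspa2 was called lower with TPM scaling (adjusted p = 0.0348) and by library totals (0.0393), and with the block for sets of replicates (0.0428). Of 13 mitochondrial chaperones and proteases, 4 were higher at an unadjusted p under 0.05, with a median of 0.07. With the block for sets of replicates, the protease Yme1l1 (0.22) had an adjusted p of 0.0364, past the threshold, against 0.227 without it. Hspd1, the mitochondrial chaperonin, was measured at 171, 174, 148 and 162 FPKM in control and at 185, 252, 223 and 276 FPKM in cKO libraries (0.50, adjusted p = 0.101), and its partner Hspe1 differed by 0.53 (adjusted p = 0.180) and the protease subunit Clpx by 0.28 (adjusted p = 0.112). The difference between these lists and the ER chaperones was not tested.

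**Figure D5:**
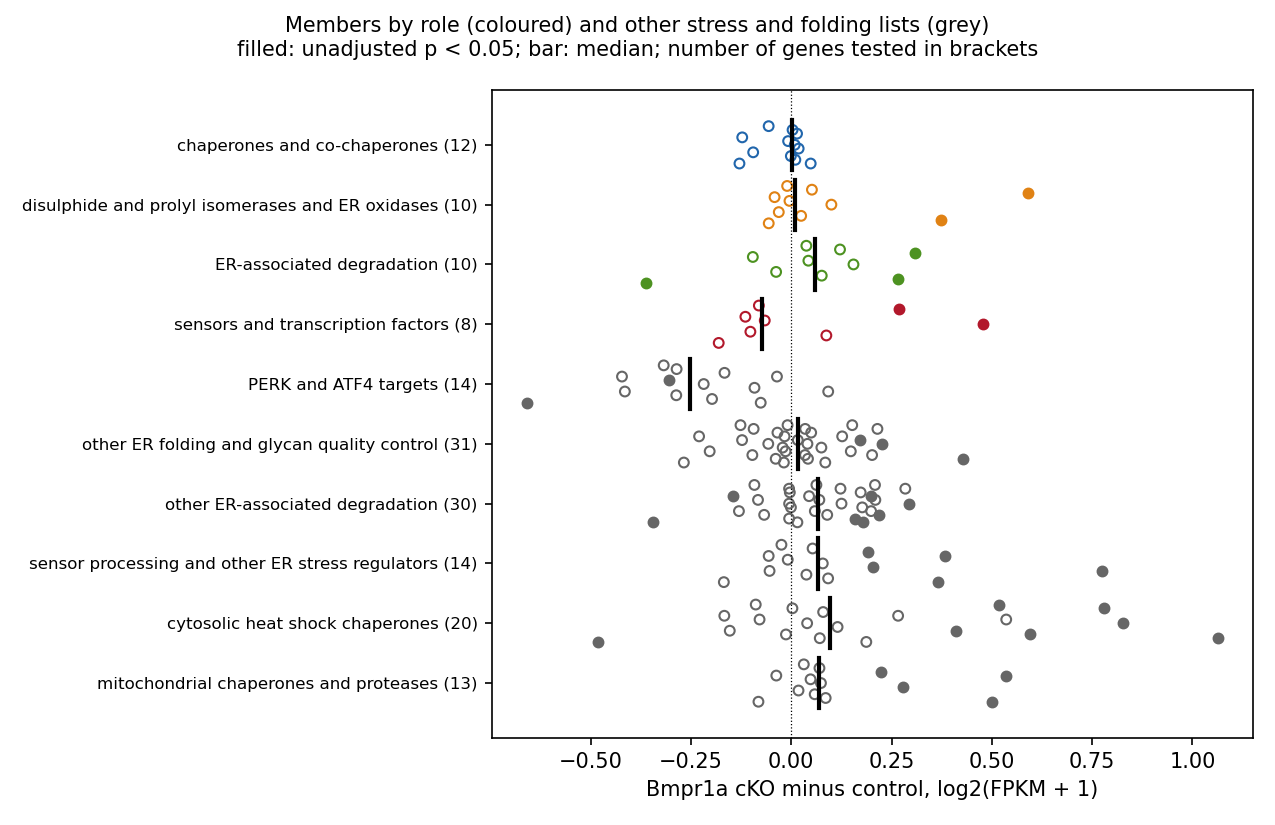
Difference between cKO and control libraries in log2(FPKM + 1) for each gene tested, for the members by role (coloured) and the 6 further lists (grey), with the median of each list as a bar and genes at an unadjusted p under 0.05 filled. The 12 ER chaperones cluster around 0, the PERK and ATF4 targets have a median of -0.25, and the cytosolic heat shock genes spread the furthest to the right.

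Some members share exonic bases with a neighbour that is itself expressed. Derl2 does with Mis12, Pdia6 with Atp6v1c2, Syvn1 with Mrpl49 and Manf with Dcaf1 and Rbm15b. Whether the counting used strand is not given in the sources used here, so reads in those stretches cannot be assigned with certainty. None of these members had an unadjusted p under 0.05. Eif2ak3 shares 485 bases with Gm43292, which held at most 7 reads in a library. Other cell types were present in every library and were compared by their marker lists. Luminal markers had 0 of 11 genes at an unadjusted p under 0.05 and fibroblast markers 0 of 10, myoepithelial markers had 1 higher and 5 lower of 13, endothelial markers 4 lower of 8, macrophage markers 4 lower of 8, T and NK lymphocyte markers 1 lower of 6 and adipocyte markers 3 higher of 4, beside 8.85% higher and 7.53% lower among all genes. Of these lists' genes, Procr among the myoepithelial (-0.76, adjusted p = 0.0204) and Vwf among the endothelial markers (-0.46, adjusted p = 0.0267) were lower and Cidec among the adipocyte markers (0.86, adjusted p = 0.0377) was higher past the adjusted test. Means were lower in cKO libraries for all 10 fibroblast, 8 endothelial, 8 macrophage and 6 T and NK lymphocyte markers, beside 7540 of the 15143 genes tested. They were lower for 7 of 11 luminal and 7 of 13 myoepithelial markers and for 0 of 4 adipocyte markers. The part of such differences in the members' values was not tested.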

How the data were processed

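Libraries were made by the authors with a NEBNext Ultra kit from 1 μg of total RNA, mapped with Hisat2 and deposited as FPKM (fragments per kilobase of gene, scaled for depth). The submitters' processing notes list StringTie 1.3.3b, featureCounts 1.5.0-p3 and the build mm9, whereas the coordinates in the file are those of GRCm38 for all 42 genes checked (members and Bmpr1a). The deposited FPKM proved to be whole reads in 100% of values above 0 (tolerance 0.01 of a read), scaled by median-of-ratios size factors. As FPKM are not counts, log2(FPKM + 1) was tested with limma 3.58.1 in R 4.3.3 (empirical Bayes with trend, Benjamini-Hochberg over 15143 genes, those whose FPKM averaged 0.5 or more), without covariates, on all 8 libraries. Confidence intervals are at 95% and cover the moderated spread between libraries.

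Groups follow the sample labels, and the study's methods give 4 mice for each. The members and lists were chosen with earlier results of these data known. Given with values by library were the 3 sensors, Xbp1, Hspa5, Hsp90b1, members with an adjusted p under 0.05, the 12 members with the smallest p and the 3 with the highest mean. The 3 genes with the smallest p of each further list were named, some by their difference alone. A few more were chosen after their values were seen (Fos, Egr1, Igkc, and the genes in the plot of PERK and ATF4 targets). The procedure was also run on simulated reads drawn independently for each library. Sets of replicates were not simulated, and no result here rests on that run. Motifs were searched in Python 3.11.15. Alternatives were other scalings, pseudocounts and filters, blocks by replicate number or by sets of replicates, limma-voom on recovered reads and the removal of each library.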

Additional observations from a re-analysis of the deposited data

Results flagged for a closer look

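In 8 of 82 groups of 4 libraries, 1 library lay far from the other 3 of its group by Dixon's test at its 95% critical value, where chance gives about 4.1. In cKO libraries these were Atf6b in replicate 1 (18.2 FPKM against 16.4 to 16.6), Xbp1 in replicate 4 (149 against 142.6 to 143.3), Ero1l in replicate 1 (26.2 against 22.1 to 22.5), Herpud1 in replicate 3 (76.2 against 47.5 to 51.8) and Edem1 in replicate 1 (19.7 against 17.7 to 17.9). In control libraries they were Pdia5 in replicate 4 (7.54 FPKM against 5.84 to 6.00), Edem1 in replicate 1 (19 against 15.8 to 16.2) and Derl2 in replicate 2 (5.62 against 4.77 to 4.89). The cause was not tested for any of them.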

How the results depend on the processing

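Over 374 recomputed differences of the 17 members given in detail, 364 kept their direction, and 348 of these were also counted as unchanged. In fits with a test, unchanged means on the same side of the threshold. Replicates 1 and 2 alone and replicates 3 and 4 alone were not tested. There, unchanged means a shift smaller than the SD within groups. The sign turned in 10, of which 9 were Hsp90b1, a gene with a difference of 0.01, and 1 was Hspa5, at 0.01551 with replicates 3 and 4 alone. Hsp90b1 was -0.02395 scaled to TPM without milk genes, -0.05308 scaled to TPM, -0.05074 by library totals, -0.0003833 with voom and a replicate block, -0.0965 with replicates 1 and 2 alone, and ran from -0.05157 to 0.06151 with a library left out. Xbp1 kept its direction everywhere and lost its call in 6 of 8 leave-outs. Limma called 1 member, 2 with a replicate block (Xbp1 and Fkbp11, adjusted p 0.0427 and 0.0478), 3 with a block by sets of replicates (Xbp1, Ero1l and Fkbp11), 2 with voom on recovered reads (Xbp1 and Ero1l), 3 with voom and a replicate block, and 0 to 1 with a library left out. Members at an unadjusted p under 0.05 numbered 7, and 4 to 7 with a library left out, the 4 without cKO replicate 4: Xbp1, Ero1l and Fkbp11 were under it in 8 of 8 such fits, Edem2 in 7, Selenos in 4, Herpud1 in 3 and Eif2ak3 in 2. Calls in the further lists, 2, became 0 without a filter, 1 with a replicate block (Serp1, with Bhlha15 at an adjusted p of 0.0614), 6 with a block by sets (Serp1, Bhlha15, Ddit3, Man1a, Hspa2 and Yme1l1), 10 with voom and a replicate block (Serp1, Bhlha15, Sesn2, Man1a, Tram1, Hspa2, Hsp90aa1, Hspb8, Hspd1 and Hspe1), and 0 to 4 with a library left out. Calls among all genes, 135, became 10 without a filter, 50 with a replicate block, 442 with a block by sets, 246 with voom, 664 with voom and a replicate block, and 0 to 78 with a library left out, the 0 without control replicate 4. The causes were not tested. Replicate numbers are shared by the groups but were not treated as pairs: same-numbered libraries deviated together with correlations of 0.0797 to 0.137, not every one over 0.1, and not every library correlated best with its own number. Control and cKO libraries of the same set but another number correlated at 0.0873 to 0.178. Those of different sets correlated at -0.21 to -0.072. The sets, replicates 1 and 2 and replicates 3 and 4, come from such patterns in these data and not from labels. The members tested held from 41 reads (Creb3l4) upward in each library, and Ern2 held 0. The median of the members stayed between -0.03 and 0.04 with a library left out, and TPM scaling moved it to -0.06, as it moved that of all genes.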

Other observations

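Outside the members, 37 genes had an ERSE or ERSE-II in their RefSeq window, of which 15 were tested. They had a median difference of 0.07, with 3 higher and 2 lower at an unadjusted p under 0.05 and 0 past the adjusted test (limma), beside 8.85% higher and 7.53% lower at that unadjusted p among all genes. Among members, the 16 with ACGTG in the window had 4 higher and 1 lower at an unadjusted p under 0.05 and a median of 0.03, and the 19 with a window and no ACGTG had 2 higher, 0 lower and a median of 0.00, beside the same shares of all genes.

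The ratio of Ero1l to its paralog Ero1lb was 5.94 to 7.90 in control and 8.438 to 9.9996 in cKO libraries. The ratio of Ero1l to its partner P4hb was 0.0791 to 0.0989 in control and 0.104 to 0.120 in cKO libraries. Both pairs were chosen after the values were seen.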
